A study of Mus musculus with 8 samples.

Results

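The genes examined here encode isoenzymes of 4 steps of glycogen breakdown and glycolysis: glycogen phosphorylase, phosphofructokinase, phosphoglycerate mutase and enolase. The list held 10 genes: the muscle isoforms Eno3, Pgam2, Pfkm and Pygm, and the isoforms Eno1, Pgam1, Pfkl, Pfkp, Pygl and Pygb of the same enzymes. Members were all array probe sets that the platform annotation assigned to exactly 1 of these genes. That gave 13 probe sets for 9 of the 10 genes, among 18193 genes so named in the whole table. No probe set was assigned to Eno1 alone, and Eno1 was not analysed here. The arrays came from subcutaneous fat of male mice that the series title calls diabetic. Strain and cause of diabetes were not given in the sources used here. The labels give an age of 8 weeks, which cannot be the age of the mice after the 10 weeks of treatment. The placebo group (mice 6, 8, 10 and 14) was given water only, and the other group (mice 5, 9, 11 and 13) was gavaged with niacin bound chromium (NBC), a chromium and nicotinic acid supplement, at 10 mg per kg body weight in water. Both groups were treated for 10 weeks on 5 days a week, and each mouse gave 1 Affymetrix Mouse Genome 430 2.0 array.

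Glycogen phosphorylase releases glucose phosphate from glycogen, phosphofructokinase commits it to glycolysis, and mutase and enolase carry out late steps before pyruvate is made. Each step is served by isoenzymes from separate genes with different tissue distributions. Pygm, Pgam2 and Eno3 are the isoforms of differentiated striated muscle, and their loss in people causes muscle glycogen storage diseases or exercise intolerance. Pfkm is the muscle form of phosphofructokinase but is also made in other tissues. Pygl and Pfkl are named for liver, Pygb for brain and Pfkp for platelets, and these forms, like Pgam1, are widespread outside muscle, adipose tissue included.

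Values are MAS5 signal intensities on a linear scale, 1 per probe set and array, and signals of different probe sets are not comparable as levels. The array medians ran from 285.5 to 329.6 with the same trimmed mean on all arrays. Adipocyte markers were abundant in every mouse, with all 7 named markers of 8 past the filter on dim probe sets and a summed signal of 482239.9 to 596466.2 in placebo and 474903 to 573821.5 in NBC mice. The arrays of NBC mouse 9 and placebo mouse 10 stood apart from their groups for several genes below. The labels describe separate mice, so the spread covers mouse and array together, and with 4 arrays a group the precision is low.

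In 3 of the 4 NBC mice the signals of Eno3, Pgam2 and Pygm stood far above those of all placebo mice, while NBC mouse 9 read near or below the placebo level. Mean signals in NBC were 7.64 times the placebo mean for Eno3, 10.7 times for Pgam2 and 9.71 times for Pygm. Pfkm had the narrowest difference of the muscle isoforms at 1.46 times. For the 5 other isoforms measured the ratio of means lay between 0.819 (Pygb) and 1.03 (Pgam1 and Pfkp). In these whole-tissue samples fewer cells of a type and less RNA per cell cannot be told apart.

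Eno3 (probe set 1417951_at) encodes the beta subunit of enolase, which forms phosphoenolpyruvate in striated muscle. Its signal was 691.5, 799.3, 1118.3 and 732.8 for placebo mice 6, 8, 10 and 14, against 7785, 8608.7, 1281 and 7866.3 for NBC mice 13, 11, 9 and 5. The groups did not overlap, although NBC mouse 9 lay only just above placebo mouse 10. The group means were 835 ± 194 with placebo and 6385 ± 3423 with NBC (SD, n = 4 per group). The log2 difference, NBC minus placebo on the log2(signal + 26) scale, was 2.60 with a standard error of 0.56 (95% interval 1.34 to 3.87). Eno3 ranked 13 of 11662 genes in limma's moderated test and missed the 0.05 threshold after Benjamini-Hochberg adjustment over all 22519 probe sets tested (limma adjusted p = 0.653).

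Pgam2 (1418373_at) encodes the muscle subunit of phosphoglycerate mutase, which moves the phosphate group within phosphoglycerate. The signal for placebo mice 6, 8, 10 and 14 was 166.9, 118.2, 188.1 and 107.9, and in NBC mice 13, 11, 9 and 5 it was 1653.8, 2336.5, 43 and 2174.8. NBC mouse 9 thus gave the lowest signal of all 8 mice and the other NBC mice the 3 highest, so the groups overlapped. The signal of 43 lay near the 10th percentile of all signals (26), so the place of NBC mouse 9 below the placebo mice is uncertain. The means were 145 ± 38.4 with placebo and 1552 ± 1047 with NBC (SD, n = 4 per group). The log2 difference was 2.39 (SE 1.02, 95% interval 0.092 to 4.69; limma adjusted p = 0.778).

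Pygm (1448602_at) encodes muscle glycogen phosphorylase, the enzyme missing in McArdle disease. It read 32.1, 190.2, 243.9 and 125.0 for placebo mice 6, 8, 10 and 14, against 2239, 1865.7, 177.7 and 1460.0 in NBC mice 13, 11, 9 and 5. NBC mouse 9 fell inside the placebo range and the other NBC mice were at least 1460.0. Mean signals were 148 ± 91.2 with placebo and 1436 ± 897 with NBC (SD, n = 4 per group), and the log2 difference was 2.83 (SE 0.77, 95% interval 1.07 to 4.58; limma adjusted p = 0.718). Placebo means of Pygm and Pgam2 lay below the signal of 275 at which the filter stood, so both passed it through their signals in NBC mice.

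Pfkm (1416780_at) encodes the muscle subunit of phosphofructokinase. Its signal was 2370.3, 2314.6, 2863.8 and 2541.2 for placebo mice 6, 8, 10 and 14. In NBC mice 13, 11, 9 and 5 it was 4325.9, 4854.7, 2402.9 and 3098.3. The 3 NBC mice with high Eno3 lay above all placebo mice, mouse 5 by a small margin, and NBC mouse 9 lay within the placebo range. Means were 2522 ± 247 and 3670 ± 1120 (SD, n = 4 each), with a log2 difference of 0.49 (SE 0.22, 95% interval -0.0027 to 0.98; limma adjusted p = 0.778).

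**Figure D1:**
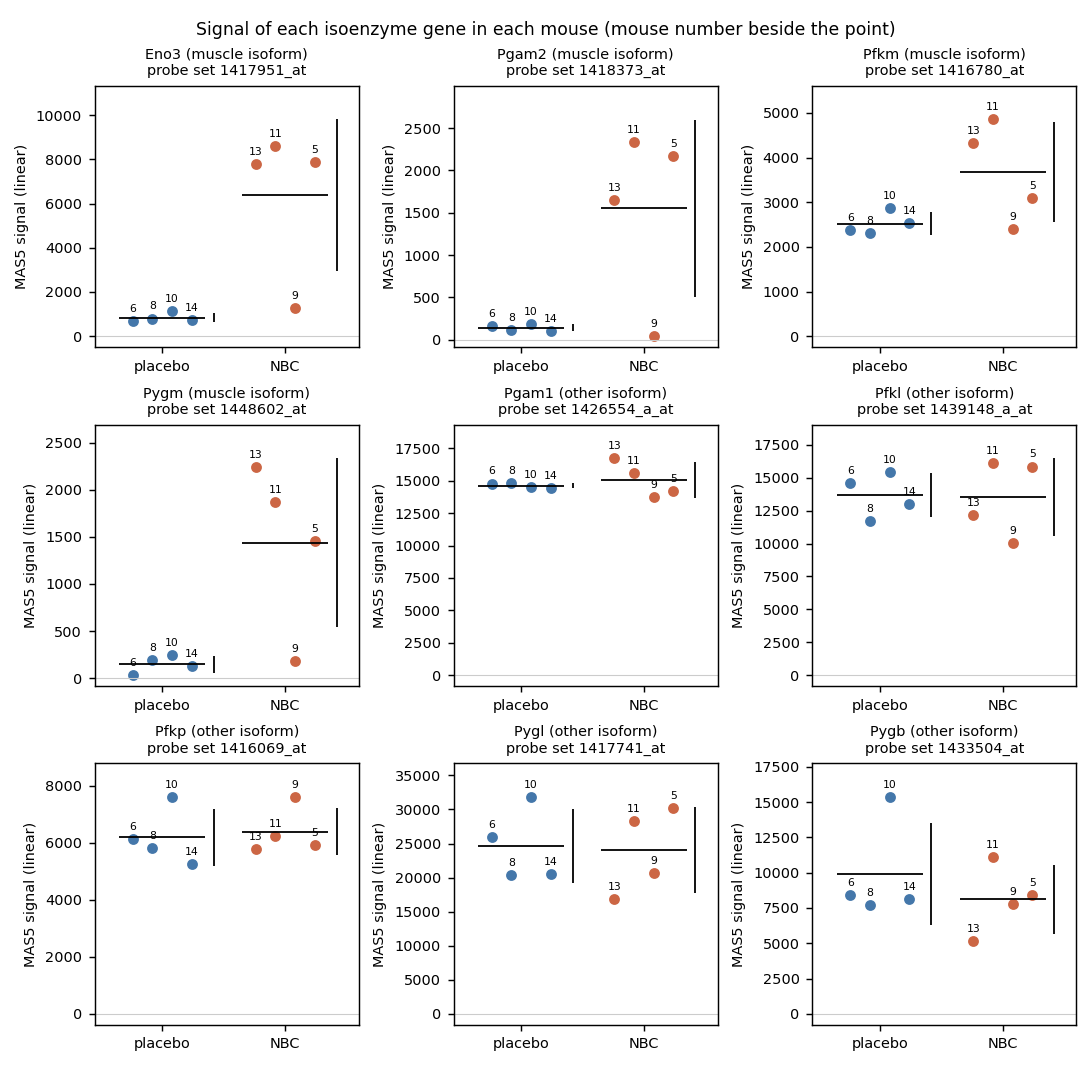
MAS5 signal (linear, each axis starting near 0) of the 9 measured isoenzyme genes in each mouse, placebo in blue and NBC in orange, with the mouse number at each point, the group mean as a line and the SD as a bar. Eno3, Pgam2 and Pygm are high in NBC mice 5, 11 and 13 and low in NBC mouse 9, while the 5 other isoforms overlap between the groups.

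Of the 4 muscle isoforms, all had a log2 difference above 0 and 3 reached an unadjusted limma p under 0.05, where 2.73% of the 11662 genes tested did so in this direction. The count of 3 was 2 when any single mouse other than NBC mouse 9 was left out, and 4 without NBC mouse 9. Pgam2 fell below the filter without NBC mouse 5 or 11. Only Eno3 had no overlap between groups in this direction, as had 1.7% of all genes. Since Pgam2 and Pygm passed the filter through one group, these counts describe the list and support nothing further. After adjustment over all probe sets no probe set passed (0%), and 1400 had an unadjusted limma p under 0.05. Leaving out each mouse in turn, calls appeared in a single case: without NBC mouse 9 limma called 19 probe sets (0.0844%), among them Eno3 and Pgam2. In that fit the log2 difference was 3.26 (SE 0.18, adjusted p = 0.000657) for Eno3 and 3.62 (SE 0.21, adjusted p = 0.000795) for Pgam2. Pygm (3.62, SE 0.48, adjusted p = 0.0646) and Pfkm (0.67, SE 0.18, adjusted p = 0.276) missed the threshold without that mouse too. The animal left out is the one that stood apart in these same transcripts.

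**Figure D2:**
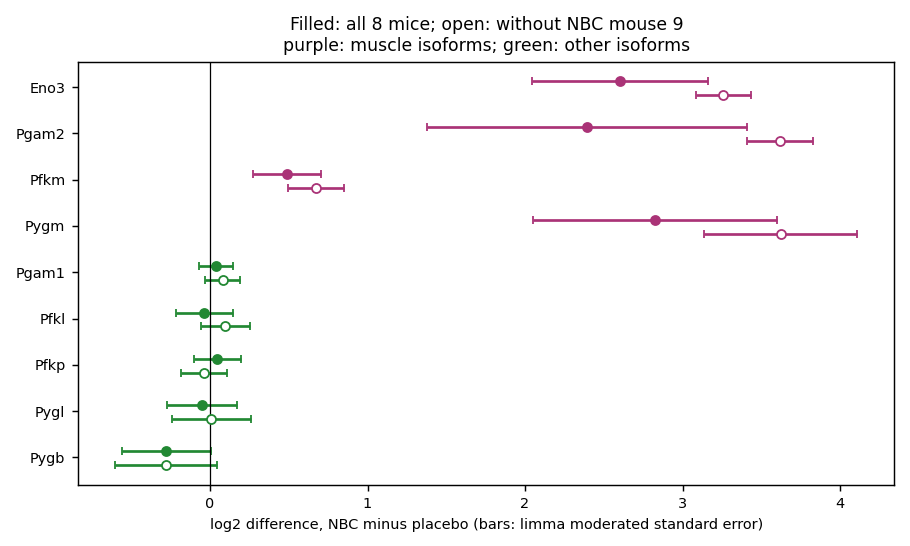
Log2 difference (NBC minus placebo) of each isoenzyme gene with its moderated standard error, for all 8 mice (filled) and without NBC mouse 9 (open), muscle isoforms in purple and others in green. The muscle isoforms lie between 0.49 and 2.83 with all mice, and the other isoforms between -0.28 and 0.05.

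Among the other isoforms, none of the 5 genes reached an unadjusted limma p under 0.05, where 2.73% of genes did so higher and 2.71% lower in NBC. Their median log2 difference was -0.036, against -0.0064 over all genes tested and 2.50 for the muscle isoforms. None had groups without overlap, which 2.23% of genes had in the lower direction.

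Pgam1 (1426554_a_at), the mutase subunit of most tissues, read 14789.3, 14794, 14523.4 and 14419.1 for placebo mice 6, 8, 10 and 14, against 16744.3, 15583.4, 13747.4 and 14197.3 for NBC mice 13, 11, 9 and 5. The placebo mice lay within a narrow span and the NBC mice on both sides of it. The log2 difference was 0.04 (SE 0.11), and its 95% interval of -0.21 to 0.28 bounds the change that these arrays leave possible in either direction.

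The liver-type phosphofructokinase Pfkl (1439148_a_at) averaged 13697 ± 1668 with placebo and 13532 ± 2958 with NBC (SD, n = 4 per group). Its single values ran from 11701 (mouse 8) to 15437.9 (mouse 10) in placebo mice and from 10021.8 (mouse 9) to 16102.3 (mouse 11) in NBC mice. The log2 difference of -0.04 (SE 0.18, 95% interval -0.44 to 0.37) and that of another kept probe set, 1450269_a_at (-0.11, SE 0.12), were both smaller than the spread between mice. The platelet-type gene Pfkp (1416069_at) gave 0.05 (SE 0.15, 95% interval -0.29 to 0.39), with its highest signals in placebo mouse 10 (7606.3) and NBC mouse 9 (7599.4). A second Pfkp probe set, 1430634_a_at, had a difference of -0.36 (SE 0.40). It read 473 to 599.5 in placebo mice, but 983.6 in NBC mouse 9 against 461.5, 345.5 and 178.4 in NBC mice 13, 11 and 5. On this probe set NBC mouse 9 thus stood above and the other NBC mice below all placebo mice, the reverse of the Pgam2 order; without NBC mouse 9 the difference was -0.75 (SE 0.27, limma adjusted p = 0.383). The brighter probe set of Pfkp did not share this split. The dim probe sets 1453541_at of Pfkl and 1437759_at of Pfkp did not pass the filter, and their differences were 0.19 (SE 0.30) and -0.62 (SE 0.50).

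The liver-type phosphorylase Pygl (1417741_at) read 25902.1, 20441.9, 31821.9 and 20496.6 for placebo mice 6, 8, 10 and 14, against 16901.1, 28336, 20716.8 and 30264 for NBC mice 13, 11, 9 and 5. The mice of both groups were spread over the same range, and the log2 difference was -0.05 (SE 0.22, 95% interval -0.56 to 0.46), or 0.080 without placebo mouse 10. The brain-type phosphorylase Pygb (1433504_at) read 8428.8, 7721.1, 15353.2 and 8125.5 for placebo mice 6, 8, 10 and 14. In NBC mice 13, 11, 9 and 5 it read 5134.8, 11121.2, 7813.4 and 8388.6. Placebo mouse 10 stood highest for both genes and NBC mouse 13 lowest. The difference of Pygb was -0.28 (SE 0.28, 95% interval -0.92 to 0.36) with all mice and -0.048 without placebo mouse 10. The same mouse had the highest summed signal of the hepatocyte markers, 23390 against 5828.7 to 8171.6 in the other placebo and 3911.7 to 8055.9 in NBC mice, with 2 of 4 markers past the filter and none at 0. Most of that sum came from Cyp2e1 (15856.5 in placebo mouse 10), followed by Alb (6571.6), while Apoa1 and Ttr lay below the filter. The smooth muscle marker sum of placebo mouse 10 was also the highest, 60374 against 32915 to 40692 in the other placebo and 33648 to 48056 in NBC mice, with 3 of 4 markers past the filter. The part of either in the Pygb and Pygl signals was not tested.

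To ask whether isoforms of the same enzyme differed unequally, the log2 signal of the other isoform was subtracted from that of the muscle isoform in each mouse, and groups were compared by exact permutation (two-sided, 70 assignments). Of the 6 possible pairs 5 could be formed, since no probe set was assigned to Eno1 alone. The muscle isoform was higher relative to its partner in NBC in all 5 pairs, and in each pair 3 of the 4 NBC mice exceeded every placebo mouse. These pairs are not independent, since Pfkm and Pygm each enter 2 of them, and the 3 pairs with Pgam2 or Pygm rest on genes kept through their NBC signals, so the shared direction is a description and supports nothing further. None of the 5 differences passed the test with all mice, and the smallest p that 4 against 4 allows is 0.0286. Values in each pair are relative to its placebo mean.

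For phosphorylase, the Pygm signal relative to Pygl was 2.88 log2 units higher in NBC (exact permutation p = 0.0571, 0.143 after adjustment over the 5 pairs). It stood at 4.43, 3.43 and 2.98 in NBC mice 13, 11 and 5 and at 0.66 in NBC mouse 9, just below the highest placebo mouse at 0.77 (mouse 8). Relative to Pygb the difference was 3.11 (exact permutation p = 0.0571, adjusted 0.143), and NBC mouse 9 (0.72) again lay just below placebo mouse 8 (0.82). For the mutase, Pgam2 relative to Pgam1 was 2.35 higher (exact permutation p = 0.143, adjusted 0.179), with 3.13, 3.72 and 3.75 in NBC mice 13, 11 and 5 and -1.19 in NBC mouse 9.

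The 2 pairs of phosphofructokinase behaved less uniformly. Pfkm relative to Pfkl was 0.52 higher (exact permutation p = 0.0857, adjusted 0.143). Here NBC mouse 9 (0.38) stood above all placebo mice and NBC mouse 5 (0.08) fell below the highest of them, mouse 8 (0.10). With quantile normalization or with the mean of all kept probe sets the groups of this pair no longer overlapped (0.53 and 0.56, exact permutation p = 0.0286 each, before adjustment over pairs). Pfkm relative to Pfkp was 0.44 higher (exact permutation p = 0.229, adjusted 0.229), with NBC mouse 9 lowest at -0.37. Without NBC mouse 9 the differences were 3.53 for Pgam2 and Pgam1, 0.71 for Pfkm and Pfkp, 3.61 for Pygm and Pygl and 3.90 for Pygm and Pygb, each with the smallest exact permutation p that 4 against 3 allows (0.0286, 0.0357 after adjustment over the 5 pairs). Pfkm and Pfkl gave 0.57 (exact permutation p = 0.0857, adjusted 0.0857). The mouse left out is again the one that stood apart in Pgam2, and the pairs with Pgam2 or Pygm rest on genes kept through their NBC signals. The p-values without this mouse therefore support nothing further.

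**Figure D3:**
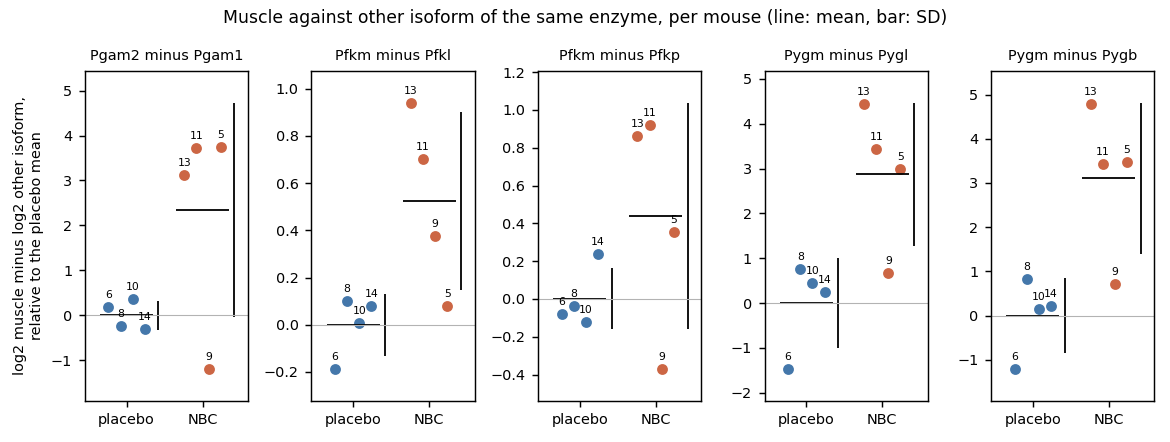
Log2 signal of the muscle isoform minus that of the other isoform of the same enzyme in each mouse, relative to the placebo mean, with group means (lines) and SDs (bars); each panel has its own linear axis. In NBC mice 5, 11 and 13 the pairs with Pygm and Pgam2 lie between 2.98 and 4.80, while NBC mouse 9 lies between -1.19 and 0.72.

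The muscle isoforms were set beside markers of fast skeletal muscle fibres, the fibres that rely most on glycolysis. All 15 fast fibre markers were named, 14 passed the filter, none was at 0, and Myh2 was the one that did not pass. Their summed signal was 10987, 13685, 28329 and 8492 for placebo mice 6, 8, 10 and 14, against 172727, 191003, 21908 and 176119 for NBC mice 13, 11, 9 and 5. The mice with the high muscle isoenzyme signals were therefore those with the high fast fibre sum, and NBC mouse 9 lay below placebo mouse 10 in this sum. Placebo mouse 10, highest of the placebo mice in this sum, was also highest of them for Eno3, Pgam2, Pygm and Pfkm. Relative to the placebo mean the sum stood at 3.65, 3.79 and 3.68 log2 units in NBC mice 13, 11 and 5, where Eno3 stood at 3.21, 3.35 and 3.22, Pgam2 at 3.32, 3.81 and 3.71, and Pygm at 3.91, 3.65 and 3.30. The gene values include the constant added before the logarithm, which understates the change of dim transcripts such as Pgam2 and Pygm. The sum was taken without it and is weighted to the brightest markers, so the heights compare only roughly. Single fast fibre markers past the filter had log2 differences between the groups from 0.90 to 4.24. Pfkm stood at 0.78, 0.94 and 0.30 in NBC mice 13, 11 and 5. Markers of slow fibres and heart did not share this pattern: 2 of 8 passed the filter, and their sum was 1413 to 1818 in placebo and 1045 to 1559 in NBC mice. The part of muscle tissue in the samples in these differences was not tested. The ratio of 3' to 5' Gapdh control signals, which rises with RNA degradation, was 0.924 to 1.04 in placebo mice and 1.11, 1.28, 0.844 and 1.47 in NBC mice 13, 11, 9 and 5. For Gapdh, NBC mice 13, 11 and 5 thus lay above and NBC mouse 9 below all placebo mice. The same ratio of beta-actin was 1.51 to 1.74 in placebo mice and 1.56, 1.82, 1.51 and 2.10 in NBC mice 13, 11, 9 and 5. For beta-actin NBC mouse 13 lay inside the placebo range. The part of RNA quality was not tested either.

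**Figure D4:**
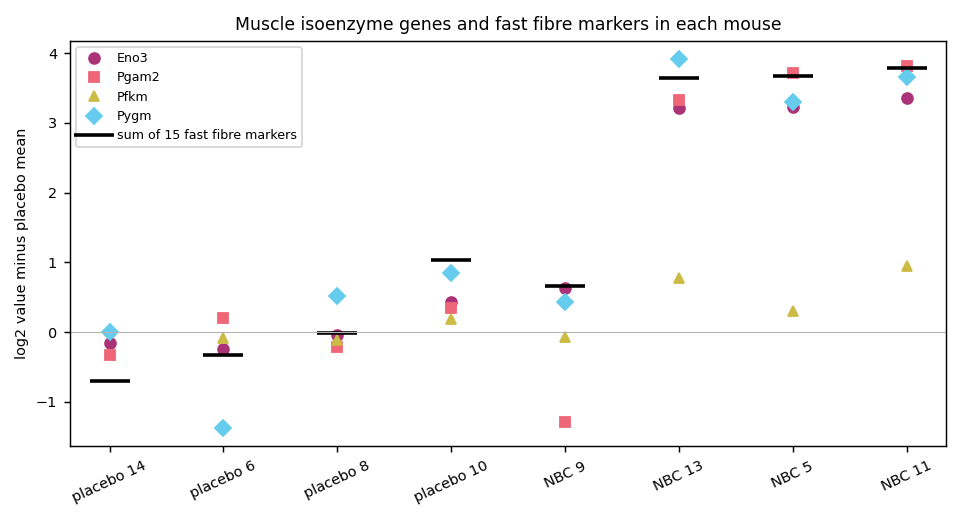
Log2 value of each muscle isoenzyme gene (coloured markers) and of the summed signal of 15 fast fibre markers (black bars) in each mouse, minus the placebo mean; mice are placed within their group by the marker sum. Eno3, Pgam2 and Pygm lie between 3.21 and 3.91 in NBC mice 5, 11 and 13, and Pfkm stays at or below 0.94. The marker sum lies between 3.65 and 3.79 in these mice. Gene values include the constant added before the logarithm, which understates dim transcripts, and the sum does not, so their heights are not strictly comparable.

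The genes with the profile most like each muscle isoform over the 8 arrays were found by the root mean square difference of centred log2 values among all non-member genes tested, which takes the size of the difference into account as well as its shape. For Eno3, whose own values had a root mean square deviation of 1.54 from their mean, the nearest were Apobec2, a striated muscle member of the cytidine deaminase family (0.173), the fast myosin light chain gene Myl1 (0.307) and the calsequestrin gene Casq1 (0.414). For Pygm (1.83) they were the fast fibre calcium pump gene Atp2a1 (0.396), Apobec2 (0.482) and the fast myosin heavy chain gene Myh4 (0.602). Pgam2 (1.93) had no gene as close, with Atp2a1 at 0.75, Apobec2 at 0.761 and Myl1 at 0.795. Apobec2 read 79.9 to 187.8 in placebo mice, below the filter limit of 275. Like Pgam2 and Pygm, it was in the search through its NBC signals, so these matches are a description and support nothing further. Pfkm, with a deviation of only 0.381, was nearest to the tropomyosin gene Tpm2 (0.117), D930016D06Rik (0.15) and Arih2 (0.17). The Tpm2 match is that of its brightest kept probe set, 1419738_a_at. It read 3758.3 to 4755.3 in placebo mice and 8845.9, 7451.9, 4083.5 and 5130.6 in NBC mice 13, 11, 9 and 5. Another Tpm2 probe set had a log2 difference of 3.57 without NBC mouse 9, where Pfkm had 0.67. The match therefore holds for that probe set and not for Tpm2 as a gene.

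RefSeq promoter windows of the muscle isoforms are shown because their transcripts were high in the same mice; each runs from 250 bases before to 50 bases after an annotated start (assembly GRCm38.p6). Windows were given for all 10 genes. Searched on both strands were the E-box CANNTG, bound by many basic helix-loop-helix factors, its form CAGCTG favoured by myogenic factors, the TATA box TATAAA, the core ACGTG of hypoxia elements, and the MEF2 site by its usual consensus. CAGCTG is contained in CANNTG, and ACGTG can overlap it. Capitals mark every match. The Eno3 window is chr11:70656926-70657225 on the plus strand, that of Pgam2 chr11:5803747-5804046 on the minus strand and that of Pygm chr19:6384158-6384457 on the plus strand, and Pgam1 at chr19:41911621-41911920 on the plus strand is given as the other isoform for comparison.
Eno3: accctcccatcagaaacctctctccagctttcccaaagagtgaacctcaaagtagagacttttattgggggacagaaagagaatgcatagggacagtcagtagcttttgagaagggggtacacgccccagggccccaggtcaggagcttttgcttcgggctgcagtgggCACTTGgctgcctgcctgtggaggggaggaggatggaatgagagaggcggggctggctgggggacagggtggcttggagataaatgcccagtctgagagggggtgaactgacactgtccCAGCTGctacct
Pgam2: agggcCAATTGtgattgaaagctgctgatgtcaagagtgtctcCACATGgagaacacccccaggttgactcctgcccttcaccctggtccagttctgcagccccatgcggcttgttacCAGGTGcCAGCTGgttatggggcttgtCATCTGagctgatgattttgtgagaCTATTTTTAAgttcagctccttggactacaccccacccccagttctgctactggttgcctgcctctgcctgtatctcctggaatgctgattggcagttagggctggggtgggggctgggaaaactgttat
Pygm: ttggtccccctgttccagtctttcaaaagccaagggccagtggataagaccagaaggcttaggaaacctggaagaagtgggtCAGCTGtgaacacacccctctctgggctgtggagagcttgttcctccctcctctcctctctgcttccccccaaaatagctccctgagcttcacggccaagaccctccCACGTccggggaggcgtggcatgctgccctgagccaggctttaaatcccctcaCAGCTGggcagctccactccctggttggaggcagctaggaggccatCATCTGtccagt
Pgam1: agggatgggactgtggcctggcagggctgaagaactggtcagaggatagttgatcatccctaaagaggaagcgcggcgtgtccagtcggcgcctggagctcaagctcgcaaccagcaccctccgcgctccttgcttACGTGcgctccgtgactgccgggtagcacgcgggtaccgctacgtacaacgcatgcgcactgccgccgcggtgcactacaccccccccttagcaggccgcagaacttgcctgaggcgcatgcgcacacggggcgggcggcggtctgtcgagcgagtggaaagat

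CAGCTG occurred once in the Eno3 window (39 bases after the start), once in that of Pgam2 (125 bases before it) and at 168 and 8 bases before the start of Pygm, while 16.3% of the 32851 promoter windows in the table held it. It was in none of the windows of Eno1, Pgam1, Pfkl, Pfkp, Pygl and Pygb, and in none of the 4 annotated Pfkm windows. A MEF2 match lay 80 bases before the Pgam2 start and in no other member's window (3.19% of all windows). CANNTG, which 72.3% of all windows held, occurred in windows of both kinds of isoform: 5 times for Pgam2, 3 for Pygm, 2 for Eno3 and 5 over the 4 Pfkm windows, but also 3 times for Pfkl and 2 for Eno1. It did not occur for Pgam1, Pfkp, Pygl or Pygb. ACGTG (19.6% of all windows) was matched for Pgam1, Pygl, Pygb, Pygm and Pfkm, and TATAAA (13.6%) for no member. These are matches of letters in short windows and say nothing of whether a factor binds there.

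The other genes of glycolysis and glycogen metabolism gave small differences. The list held 48 gene symbols, of which 36 were tested and 5 lay below the filter. A further 6 were not named in the annotation used and Gapdh was read by control probe sets alone. The glycogenin gene was listed under both Gyg, which was tested, and Gyg1, which was not named. Of the 36, 20 had a log2 difference above 0 and 16 below, with a median of 0.026 against -0.0064 over all genes. A single gene reached an unadjusted limma p under 0.05, higher in NBC (2.73% of all genes did), and none did so in the lower direction (2.71%). None passed after adjustment.

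That gene was Phka1, the alpha regulatory subunit of phosphorylase kinase in its muscle form, which activates glycogen phosphorylase. Probe set 1435567_at read 633.2, 476.8, 596.8 and 540 for placebo mice 6, 8, 10 and 14, against 858.2, 759.4, 935 and 752.6 for NBC mice 13, 11, 9 and 5. The groups did not overlap, as for 1.7% of all genes in this direction. NBC mouse 9 was the highest, unlike its place for the muscle isoenzymes. The log2 difference was 0.54 (SE 0.13; limma adjusted p = 0.653). A further kept probe set, 1422743_at, gave 0.42 (SE 0.26) with overlap, while the dim 1422744_at, below the filter, gave the opposite sign (-0.98, SE 0.40), with no overlap.

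The 7 next genes by p all had overlapping groups on their brightest probe set. Tigar, a phosphatase that lowers the activator of phosphofructokinase, averaged 1132 ± 209 in placebo and 1448 ± 166 in NBC mice (log2 difference 0.36, SE 0.16), while its other kept probe sets, 1447934_at and 1435929_at, gave -0.17 each (SE 0.21 and 0.22). The liver-type glycogen synthase Gys2 differed by 0.36 (SE 0.21), the branching enzyme Gbe1 by -0.26 (SE 0.19) and Ugp2, which makes the glucose donor of glycogen synthesis, by -0.14 (SE 0.11). Of the other Ugp2 probe sets, 1426460_a_at read lower in all NBC mice without overlap (-0.20, SE 0.11, limma adjusted p = 0.784). On their brightest probe sets 2.23% of all genes had no overlap in this direction. The hexokinase Hk2 differed by -0.14 (SE 0.12), the lactate transporter Slc16a1 by 0.23 (SE 0.21) and Pfkfb4, which makes the activator of phosphofructokinase, by 0.13 (SE 0.12). Of 2 abundant enzymes chosen after their values were seen, the aldolase Aldoa gave 0.03 (SE 0.13) and the lactate dehydrogenase subunit Ldha -0.00069 (SE 0.11). The neuronal enolase Eno2, the only other enolase analysed here, differed by 0.02 (SE 0.29).

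**Figure D5:**
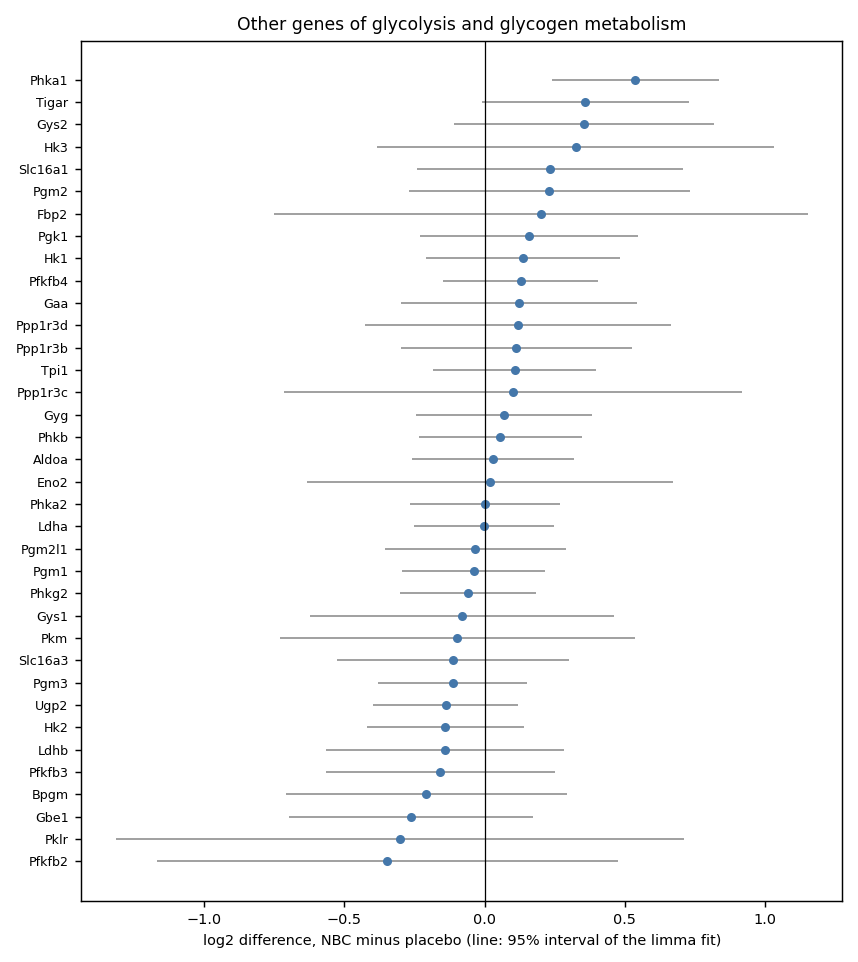
Log2 difference (NBC minus placebo) of the 36 other genes of glycolysis and glycogen metabolism, with 95% intervals of the limma fit, ordered by size. The values run from -0.35 to 0.54, and the interval of Phka1 at the top (0.24 to 0.84) is the one that lies wholly above 0.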

How the data were processed

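Total RNA of subcutaneous fat from 4 placebo and 4 NBC mice was labelled with biotin and read on 1 array per mouse. The authors deposited linear signal intensities, 1 per probe set. The submitters' processing notes name MAS5 without a version. Arrays had been scaled already: trimming 2% of signals from both ends left a mean of 1500.01 throughout, and no further scaling was applied. Such scaling lets very abundant transcripts of 1 array lower its other signals slightly. Scanner, batch and detection calls were not used here.

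Groups were taken from the titles. Signals were transformed as log2(signal + 26), 26 being the 10th percentile of all 45101 probe sets, which understates the change of dim transcripts. After 64 control probe sets were left out, those with a mean log2 value at or above the median were kept (22519). Limma 3.58.1 in R 4.3.3 (lmFit and eBayes, no covariate) compared the groups, with Benjamini-Hochberg adjustment over everything kept, at 0.05. SEs are moderated, while SDs refer to linear signals. A gene was represented by its brightest kept probe set (11662 genes). The fit was tested on simulated arrays, in which probe sets varied independently and a changed probe set changed alike in all NBC arrays. That test does not cover a mouse that stands apart from its group, as NBC mouse 9 did.

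In the platform annotation 34945 probe sets had 1 gene symbol, 932 had more than 1 and 9160 had no symbol. All 9 member genes matched RefSeq by Entrez identifier. Named were every member probe set, the 8 other pathway genes with the smallest p and 3 nearest profiles per muscle isoform. Members and lists were chosen with earlier results of these data known. Alternatives were other pseudocounts (1 and 200), filters (none, 75th percentile), quantile and median scaling, array weights, a robust trended prior, the mean of kept probe sets and leaving out each mouse.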

Additional observations from a re-analysis of the deposited data

Results flagged for a closer look

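In each group of 4 the gap between the outermost mouse and its neighbour was set against the group's range on the log2 scale, with Dixon's 95% critical value of 0.829. Of 52 such groups 4 passed it, where chance gives about 1 in 20. NBC mouse 9 was far below the other NBC mice for Eno3 (0.947 of the range), for Pgam2 (0.903) and for Pgam2 relative to Pgam1 (0.873), which shares the Pgam2 signal. Placebo mouse 10 was far above the other placebo mice for the brain-type phosphorylase Pygb (0.873). Pygm and Pfkm did not pass this limit in either group.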

How the results depend on the processing

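No paired analysis was possible because no mouse number occurs in both groups. Of 302 alternative values 271 kept the direction and the side of the threshold, or stayed within 1.5 times a count. Values with no p, such as Pgam2 without NBC mouse 5 or 11, were counted by direction alone. No probe set passed the adjusted limma threshold in any alternative but 1: leaving out each mouse gave 0 to 19, with 19 without NBC mouse 9. Unadjusted p-values under 0.05 numbered 1400, and 884 with the filter at the 75th percentile, 2396 without a filter, 2126 with array weights and 1039 to 2556 with 1 mouse left out. The cause of the change with array weights was not tested. Among the muscle isoforms 2 to 4 genes reached an unadjusted limma p under 0.05 over the alternatives. With the filter at the 75th percentile the count was 2, and Pgam2 and Pygm were not among the genes tested. Among the other pathway genes higher in NBC, the count of 1 became 0 with the stricter filter (fewer genes tested), 3 with array weights, 2 with quantile normalization and 1 to 3 with 1 mouse left out. With 1 mouse left out the log2 difference ranged from 2.35 to 3.26 for Eno3, 1.92 to 3.62 for Pgam2 (untested at 1.92 without NBC mouse 11 and 1.95 without NBC mouse 5, where it lay below the filter), 2.37 to 3.62 for Pygm, 0.34 to 0.67 for Pfkm and -0.45 to -0.05 for Pygb. The signs of the 4 smallest differences were not stable: -0.014 to 0.081 for Pgam1, -0.13 to 0.099 for Pfkl, -0.039 to 0.15 for Pfkp and -0.17 to 0.11 for Pygl. Array weights turned Pfkl to 0.083 and Pygl to 0.098, and the mean of kept probe sets turned Pfkp to -0.15. With a pseudocount of 200 Pgam2 gave 1.90 and Pygm 1.98. The pair of Pfkm and Pfkl gave 0.53 with quantile normalization and 0.56 with the mean of kept probe sets. Each had an exact permutation p of 0.0286 before adjustment over pairs. With 1 mouse left out, pair differences were 1.89 to 3.53 for Pgam2 and Pgam1, 0.39 to 0.67 for Pfkm and Pfkl, 0.28 to 0.71 for Pfkm and Pfkp, 2.36 to 3.61 for Pygm and Pygl and 2.54 to 3.90 for Pygm and Pygb. Among these, an exact permutation p of 0.0286 before adjustment was reached by 4 pairs without NBC mouse 9 (3.53, 0.71, 3.61 and 3.90). It was also reached by the pair of Pfkm and Pfkl without NBC mouse 5 (0.67). Without NBC mouse 11 the pair of Pfkm and Pfkp gave 0.28. Without placebo mouse 10 Pygl gave 0.080 and Pfkl 0.024.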

Other observations

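A dim member of the phosphorylase kinase complex was singled out after its values were seen. The catalytic gamma subunit of muscle, Phkg1, lay below the filter and was not tested. Its probe set 1425164_a_at read 15.9, 43.8, 29.9 and 34.8 for placebo mice 6, 8, 10 and 14, against 135.3, 114.9, 150.8 and 192.7 for NBC mice 13, 11, 9 and 5, with NBC mouse 9 among the high ones. The other Phkg1 probe set, 1422315_x_at, read 85.9, 141.1, 133 and 34.1 with placebo, against 258, 429.3, 103.9 and 133 with NBC, in the same orders, with overlap. The pyruvate kinase gene Pkm, also chosen after its values were seen, spread more widely in NBC than in placebo mice. It read 17568.6 to 18794 in placebo mice and 28529.5, 17994.5, 16379.9 and 9567.9 in NBC mice 13, 11, 9 and 5, while its means differed little (log2 difference -0.10, SE 0.28).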
